A study of Mus musculus with 12 samples.

Results

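The imprinted growth genes described here are H19, Igf2, Igf2r, Grb10, Cdkn1c, Plagl1, Mest, Peg3, Ndn and Gnas, 10 of the 24132 gene symbols in the deposited expression table, chosen by name as imprinted regulators of growth linked to H19 and Plagl1. Polyadenylated RNA was sequenced from neonatal tail tip fibroblasts, connective tissue cells grown from the tails of newborn mice whose strain had been backcrossed to C57BL6. The 3 genotypes were Hotair knockout, Hotair heterozygous and Hotair wild type, with 2 RNA-seq libraries each, and the title of the series puts homeotic transformation and imprinted genes in view. Hotair is a long noncoding RNA of the HoxC cluster studied as a partner of chromatin-modifying complexes. The labels give neither how the gene was disrupted nor whether the 2 libraries of a genotype came from separate animals or cultures, so the p-values below speak for the scatter of these particular libraries, possibly of technical origin only. The study also made 6 ChIP-seq libraries, which are not analysed here.

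Imprinted genes are expressed mainly from the copy inherited from 1 parent, and many of them set fetal growth. Igf2, the paternally expressed growth factor, acts through the Igf1 receptor and is cleared by the maternally expressed Igf2r, while H19, the maternally expressed noncoding RNA next to Igf2, restrains growth and carries a microRNA. Plagl1 (also called Zac1) encodes a paternally expressed zinc finger transcription factor that has been placed at the centre of a network of imprinted genes coexpressed in mouse tissues, with H19, Igf2, Cdkn1c and Mest among them. These genes are highly expressed in fetal and newborn mesenchyme and decline after birth in mice. The values below sum both parental copies and all transcripts of a symbol, so neither the parental origin of the RNA nor the use of alternative promoters was measured.

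Regulatory sequences of some of the imprinted growth genes are shown first. Promoters in RefSeq (build GRCm38.p6, from 250 bases before to 50 after a transcript start) were found for 8 of the 10 genes. They numbered 17 in all, with several starts for Igf2, Mest, Grb10 and Gnas, and none was found for H19 and Cdkn1c. The promoters of Plagl1 and Mest and that of Peg3 are printed, 3 genes paternally expressed in mouse that had the same order of genotypes. Igf2 is also paternally expressed and had that order but is not printed, and the exceptions named below are starts of Igf2. CpG dinucleotides, the sites that carry the methylation by which parental copies are marked, are in capitals.
Plagl1 promoter, chr10:13090582-13090881, plus strand: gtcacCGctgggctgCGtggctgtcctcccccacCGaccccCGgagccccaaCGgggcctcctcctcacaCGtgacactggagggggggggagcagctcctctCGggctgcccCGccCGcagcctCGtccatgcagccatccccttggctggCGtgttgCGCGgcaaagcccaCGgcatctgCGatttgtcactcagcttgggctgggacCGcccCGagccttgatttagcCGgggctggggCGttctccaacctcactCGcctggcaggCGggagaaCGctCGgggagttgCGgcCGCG
Mest promoter, chr6:30737800-30738099, plus strand: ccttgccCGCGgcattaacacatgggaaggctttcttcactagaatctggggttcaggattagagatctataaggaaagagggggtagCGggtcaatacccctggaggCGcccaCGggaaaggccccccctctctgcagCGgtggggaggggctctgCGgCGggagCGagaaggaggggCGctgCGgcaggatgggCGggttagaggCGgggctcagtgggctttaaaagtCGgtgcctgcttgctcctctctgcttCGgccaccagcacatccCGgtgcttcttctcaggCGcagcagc
Peg3 promoter, chr7:6730370-6730669, minus strand: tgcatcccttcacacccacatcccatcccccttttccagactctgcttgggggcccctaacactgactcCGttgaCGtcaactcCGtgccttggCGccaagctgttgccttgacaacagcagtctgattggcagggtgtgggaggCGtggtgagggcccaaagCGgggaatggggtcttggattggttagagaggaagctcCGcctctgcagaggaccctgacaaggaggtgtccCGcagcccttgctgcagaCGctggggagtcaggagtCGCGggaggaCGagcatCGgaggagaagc
These windows held 26 CpGs in Plagl1, 17 in the Mest window, 1 of the 3 starts of that gene, and 13 in Peg3, against a median of 7 over all 32851 promoters of the table (quartiles 3 and 20). Of the 17 promoters of these genes, 15 held more CpGs than that median, the exceptions being the 2 CpGs of 1 Igf2 start and the 7 of another. Not all of these windows are separate. The Mest windows from 30737800 and from 30737803 overlap, as do the Gnas windows from 174327499 and from 174327518. The Mest window from 30733256 held 8 CpGs. The palindrome GGGGCCCC, which the Plagl1 protein can bind and which reads the same on both strands, occurred in 1 of the 17 windows, that of Peg3, and in 1.08% of all promoters. Such a match is a description of the letters in the window.

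Some members also carry microRNAs. Mature miR-675, cut from the H19 transcript, and miR-335-5p, cut from an intron of Mest, are shown because their host genes differed most between genotypes. Bases 2 to 8, the seed that pairs with target RNAs, are in capitals, in RNA letters from RefSeq (GRCm38.p6).
mmu-miR-675-5p: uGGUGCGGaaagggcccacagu
mmu-miR-675-3p: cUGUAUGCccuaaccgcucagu
mmu-miR-335-5p: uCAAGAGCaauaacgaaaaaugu
The 3 seeds differ from each other. The sequenced RNA was selected for poly(A) tails, so mature microRNAs were not measured, and the row for Mir675 holds reads of the H19 transcript that spans it.

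Aligned reads numbered 48.1M and 46M in knockout libraries, 33.2M and 31.2M in heterozygous and 29.6M and 27.9M in wild-type libraries. Values are RPKM, reads per kilobase of gene scaled to library size. Hotair was at 0 in both knockout libraries, against 0.213 and 0.172 RPKM in heterozygous and 0.247 and 0.183 RPKM in wild-type libraries, between 11.4 and 16.2 reads each. The wild-type mean was at least 15-fold higher than the floor of 3 reads over the knockout group, and the heterozygous mean at least 13.4-fold, floors that cover counting error in the knockout libraries alone.

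Several marker groups moved with genotype. Xist, the RNA that coats the inactive X chromosome of females, stood at 0.0209 and 0.00606 RPKM in knockout, 4.65 and 4.46 RPKM in heterozygous and 0.0414 and 0.0479 RPKM in wild-type libraries, while Ddx3y, of the Y chromosome, stood at 2.88 and 2.86, at 0.133 and 0.216, and at 1.68 and 1.80 RPKM in the same order of genotypes. The Y-linked Eif2s3y, Kdm5d and Uty averaged 5.26, 2.10 and 0.895 RPKM in knockout and 1.92, 1.21 and 0.320 RPKM in wild type. In heterozygous libraries they averaged 0.0609, 0.00839 and 0.0262 RPKM. Differences of heterozygous from wild-type cells, and of knockout from heterozygous cells, therefore cannot be told apart from the difference in sex-linked RNA. Knockout and wild type also differed in Y-linked RNA, and the part of this in the results below was not tested. The summed level of 12 macrophage markers was 54.9 and 55.2 RPKM in knockout, 8.47 and 7.65 RPKM in heterozygous and 10.3 and 8.99 RPKM in wild-type libraries, and all 12 were higher in both knockout than in both wild-type libraries. Of 8 proliferation genes, all 8 had the order knockout, heterozygous, wild type without overlap, with sums of 27.7 and 27.3, 19.3 and 18.9, and 14.4 and 14.6 RPKM. The fibroblast markers were all present, with sums of 5481 to 5505 RPKM in knockout, 5500 to 5596 RPKM in heterozygous and 5884 to 5905 RPKM in wild type. These sums hide opposite moves. Of the 10 markers, 4 were higher and 6 lower in both knockout than in both wild-type libraries. Lum averaged 13.6 RPKM in knockout against 2.31 RPKM in wild type, and Thy1 94.8 against 190 RPKM. Schwann cell markers summed to 15.6 and 16.3 RPKM in knockout, 35 and 33.8 RPKM in heterozygous and 27.6 and 27.7 RPKM in wild type. Cartilage markers summed to between 6.53 and 6.99 RPKM in knockout, 6.75 and 6.83 RPKM in heterozygous and 3.42 and 3.64 RPKM in wild type. This sum was mostly Sox9, with means of 5.75, 6.08 and 3.41 RPKM in the same order of genotypes. Keratinocyte markers stayed at or below 0.866 RPKM in sum in every library, and endothelial markers at or below 0.255 RPKM. Of 9 skeletal muscle genes, Myod1 and Myf5 were at 0 in every library, and the sum (between 159 and 246 RPKM) was mostly Acta1. The part of these differences in the results below was not tested, and in bulk RNA fewer cells of a type and less RNA per cell cannot be told apart.

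**Figure D1:**
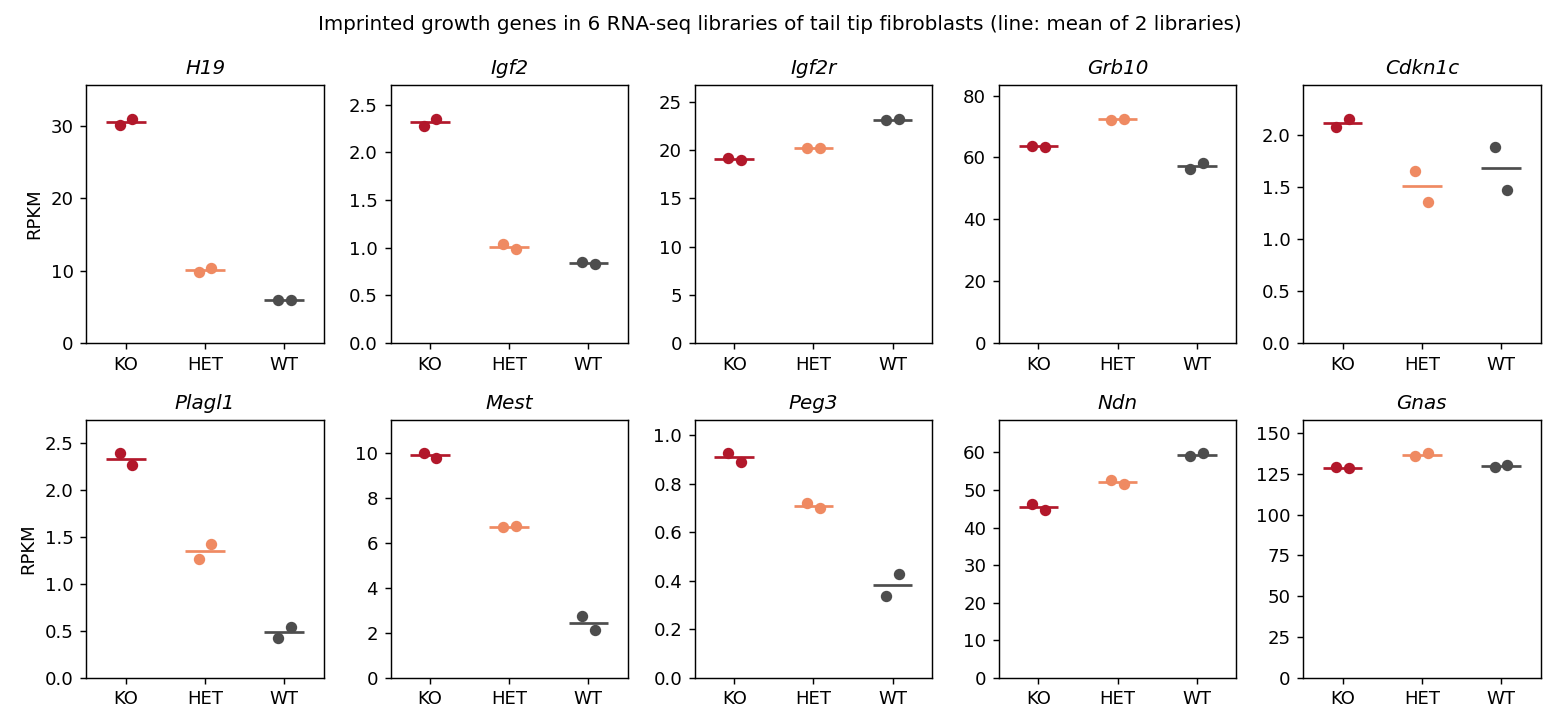
RPKM of the 10 imprinted growth genes in each RNA-seq library of Hotair knockout (KO), heterozygous (HET) and wild-type (WT) tail tip fibroblasts. Points are libraries and lines are means of 2 libraries. H19, Igf2, Plagl1, Mest and Peg3 were highest in knockout and lowest in wild type, Igf2r and Ndn had the opposite order, and Grb10 and Gnas were highest in heterozygous libraries.

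In knockout against wild-type cells, H19, Mest, Plagl1 and Igf2 rose by the largest amounts among these genes, between 2.75-fold and 5.19-fold in RPKM, and Grb10 rose slightly. Igf2r and Ndn fell, while Cdkn1c and Gnas did not pass the test. Tests were made by limma on log2(RPKM + 1) over the 10897 genes that reached 1 RPKM in 2 or more libraries. Calls were made at a Benjamini-Hochberg adjusted p under 0.05, and a difference on this scale understates the change of low genes. Of the 10 genes 9 were tested, 7 of 9 were called, 5 higher and 2 lower, with 2 not called. Over all genes tested 67.2% were called, 40.6% higher and 26.6% lower, so the number of calls is near the background and is no result about these genes. Of all calls 60.4% were higher as reported, but 46.7% with quantile normalization and 47.7% with median scaling. Called and at least 1 apart on the log2 scale were H19, Mest and Plagl1, where 2.55% of all genes tested were. Plagl1 and Igf2 passed the filter through the groups in which they are high, so no count over the tested genes supports a statement about the group, and Plagl1 fell to 0.90 after quantile normalization and to 0.42 with a pseudocount of 5. The median log2 difference of the 9 genes was 0.22, against 0.06 over all genes.

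H19 stood at 30.2 and 31 RPKM in knockout libraries, 9.82 and 10.4 RPKM in heterozygous and 5.92 and 5.86 RPKM in wild-type libraries. No library overlapped with another genotype, and each step was far larger than the gap between replicates. The knockout mean was 30.6 ± 0.586 RPKM against 5.89 ± 0.0362 RPKM in wild type (SD, n = 2 each), a log2 difference of 2.20 ± 0.04 (SE, limma adjusted p = 3.32e-08). By size of the rise H19 ranked 14 of the 10897 genes. Heterozygous cells lay 0.69 ± 0.04 above wild type (adjusted p = 1.36e-05), and knockout cells 1.51 ± 0.04 above heterozygous (adjusted p = 4.29e-07), so the larger part of the log2 difference lay between knockout and heterozygous. Between 428 and 458 reads stood behind each wild-type value and between 3732 and 3793 behind each knockout value. The nested row Mir675 stood at 17.2 and 15.5 RPKM in knockout, 7.06 and 3.38 RPKM in heterozygous and 3.65 and 4.10 RPKM in wild type. Its reads, between 60.7 and 70.2 in knockout and under 20 in every other library, cannot be told apart from those of H19.

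Igf2, which shares enhancers with H19 on chromosome 7, was far lower than H19 per length. It stood at 2.28 and 2.35 RPKM in knockout, 1.04 and 0.981 RPKM in heterozygous and 0.852 and 0.830 RPKM in wild type. Knockout was set apart from both other genotypes, which lay close together without overlapping. Knockout exceeded wild type by 0.85 ± 0.05 on the log2 scale (limma adjusted p = 8.21e-06), a ratio of 2.75 in RPKM, and heterozygous by 0.72 ± 0.05 (adjusted p = 4.97e-05). Heterozygous against wild type, at 0.13 ± 0.05, did not pass (adjusted p = 0.0731) and was -0.01 after quantile normalization. With a pseudocount of 0.1 the knockout difference from wild type was 1.36 and with a pseudocount of 5 it was 0.32. Only 98.2 to 107 reads lay behind each wild-type value, a counting SD of 9.67% to 10.1%, and the gene passed the filter through the knockout libraries and 1 heterozygous library. H19 was 13.2 and 13.3 times higher than Igf2 in RPKM in knockout libraries, 9.43 and 10.6 times in heterozygous and 6.94 and 7.06 times in wild-type libraries.

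Igf2r, the receptor that carries Igf2 to lysosomes for degradation, had the opposite order. It stood at 19.2 and 19 RPKM in knockout, 20.2 and 20.2 RPKM in heterozygous and 23.1 and 23.3 RPKM in wild type. The fall was 0.27 ± 0.03 on the log2 scale in knockout (adjusted p = 0.000131) and 0.19 ± 0.03 in heterozygous (adjusted p = 0.00148), each against wild type in limma. The further fall in knockout against heterozygous, by 0.08 ± 0.03 (adjusted p = 0.0497), was lost in 10 of 15 alternative fits, including each fit that left out 1 library (adjusted p between 0.0617 and 0.200). Airn, the antisense RNA that silences the paternal Igf2r copy in mouse, was listed at 0.132 and 0.197 RPKM in knockout, 0.109 and 0.0878 RPKM in heterozygous and 0.121 and 0.114 RPKM in wild type, below the filter.

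Grb10, an adaptor that dampens signalling from the insulin and Igf1 receptors, was abundant and highest in heterozygous cells. Values were 63.8 and 63.4 RPKM in knockout, 72.2 and 72.6 RPKM in heterozygous and 56.4 and 58.2 RPKM in wild type, with no overlap. In limma it rose by 0.33 ± 0.02 in heterozygous against wild type (adjusted p = 4.09e-05) and fell by 0.18 ± 0.02 in knockout against heterozygous (adjusted p = 0.000694). Knockout against wild type gave 0.15 ± 0.02 (adjusted p = 0.000988), a call lost after median scaling (0.06, adjusted p = 0.063). The heterozygous value of Grb10, as of every member, cannot be told apart from the difference in sex-linked RNA given above.

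Cdkn1c encodes p57, an inhibitor of cyclin-dependent kinases that stops the cell cycle. It stood at 2.08 and 2.16 RPKM in knockout, 1.66 and 1.36 RPKM in heterozygous and 1.89 and 1.47 RPKM in wild type. Heterozygous and wild-type libraries overlapped, while both knockout libraries lay above them. limma gave 0.22 ± 0.09 in knockout against wild type (adjusted p = 0.0574), which passed in 6 of 14 alternatives, among them the fit without the first wild-type library (0.33, adjusted p = 0.016) and those without the first or the second heterozygous library (adjusted p = 0.0464 and 0.0456). The difference was 0.11 without the second wild-type library (adjusted p = 0.298) and 0.0014 after quantile normalization (adjusted p = 0.992). Knockout against heterozygous gave 0.32 ± 0.09 (adjusted p = 0.0203), a call lost in 5 of 14 alternatives, among them the fits without the second heterozygous library (adjusted p = 0.106) and without the first or the second knockout library (adjusted p = 0.0672 and 0.0933). Between 79.9 and 194 reads stood behind each value.

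Plagl1, the transcription factor of the network, was among the lowest genes tested in wild-type cells, where 99% of genes tested were higher. It stood at 2.39 and 2.27 RPKM in knockout, 1.27 and 1.43 RPKM in heterozygous and 0.423 and 0.543 RPKM in wild type. The 3 genotypes did not overlap, with RPKM ratios of 2.79 for heterozygous over wild type and 1.73 for knockout over heterozygous. Knockout exceeded wild type 4.82-fold in RPKM and by 1.17 ± 0.06 on the log2 scale (limma adjusted p = 5.46e-06), heterozygous exceeded wild type by 0.66 ± 0.06 (adjusted p = 0.000187) and knockout exceeded heterozygous by 0.51 ± 0.06 (adjusted p = 0.000677). Its wild-type values rest on 66 and 79.8 reads, a counting SD of 12.3% and 11.2%. It passed the filter through the knockout and heterozygous libraries, so the selection favoured a difference from wild type and its calls against wild type are no support. With a pseudocount of 0.1 in place of 1 its log2 difference between knockout and wild type was 2.07, and with a pseudocount of 5 it was 0.42.

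Mest, an enzyme of the alpha/beta hydrolase fold expressed in mesoderm and in growing fat, had a heterozygous to wild-type ratio of 2.78 in RPKM. It stood at 9.98 and 9.79 RPKM in knockout, 6.68 and 6.76 RPKM in heterozygous and 2.72 and 2.12 RPKM in wild type. The wild-type replicates differed more than those of the other genotypes, yet lay far below them. Mest rose by 1.68 ± 0.08 in knockout (limma adjusted p = 2.46e-06) and by 1.18 ± 0.08 in heterozygous (adjusted p = 2.9e-05), each against wild type, and by 0.50 ± 0.08 in knockout against heterozygous (adjusted p = 0.00166). With a pseudocount of 5 the knockout difference from wild type was 1.01. Of the knockout difference on the log2(RPKM + 1) scale 70.4% was present in heterozygous cells, against 56.7% for Plagl1, 31.3% for H19 and 15% for Igf2. The row of Mir335, within Mest, was at 0 in all libraries but 1.

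Peg3, a zinc finger protein of apoptosis and maternal behaviour in mice, stayed under 1 RPKM in every library and was not tested with the others. It stood at 0.926 and 0.892 RPKM in knockout, 0.719 and 0.700 RPKM in heterozygous and 0.338 and 0.430 RPKM in wild type. The order matched that of Plagl1 and Mest, with no overlap and a knockout to wild-type ratio of 2.37. In the limma fit without a filter on low values the log2 difference was 0.46 ± 0.04 in knockout against wild type (adjusted p = 0.000907), 0.31 ± 0.04 in heterozygous against wild type (adjusted p = 0.00697) and 0.16 ± 0.04 in knockout against heterozygous (adjusted p = 0.0462). The row Peg3as, named as antisense to Peg3, stood at 0.777 and 1.17 RPKM in knockout, 0.817 and 0.831 RPKM in heterozygous and 0.347 and 0.483 RPKM in wild type, and the sources used here do not say whether reads of the 2 strands were counted apart, so the rows may share reads.

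Ndn, which encodes necdin, a protein that restrains division of neurons and mesenchymal cells, fell in both genotypes. It stood at 46.3 and 44.6 RPKM in knockout, 52.6 and 51.6 RPKM in heterozygous and 59 and 59.8 RPKM in wild type. Genotypes did not overlap. limma gave -0.38 ± 0.03 in knockout (adjusted p = 1.77e-05) and -0.19 ± 0.03 in heterozygous (adjusted p = 0.00121) against wild type, and -0.19 ± 0.03 in knockout against heterozygous (adjusted p = 0.000987). Ndn thus moved in the direction opposite to Igf2, Plagl1, Mest and Peg3, which are also paternally expressed in mouse, and these calls held in every alternative fit run.

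Gnas, the gene of the stimulatory G protein alpha subunit and of several transcripts imprinted in opposite directions, was the most abundant of the group. It stood at 129 and 128 RPKM in knockout, 136 and 138 RPKM in heterozygous and 129 and 131 RPKM in wild type. Knockout and wild type overlapped, with a log2 difference of -0.01 ± 0.02 (limma adjusted p = 0.540) that was 0.11 after quantile normalization and -0.10 after median scaling, each with a call. Heterozygous lay 0.07 ± 0.02 above wild type (adjusted p = 0.0118), which turned to -0.01 after median scaling and was lost without the first wild-type library (adjusted p = 0.0555), without the second heterozygous library (adjusted p = 0.0541) and without the intensity trend (adjusted p = 0.0985). Knockout lay 0.08 below heterozygous (-0.08 ± 0.02, adjusted p = 0.00588), a call lost after quantile normalization (adjusted p = 0.0779) and without the intensity trend (adjusted p = 0.0635).

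In heterozygous against wild-type cells 7 of the 9 tested genes were called, 5 higher and 2 lower, against a background of 52.6% called, 35.5% higher and 17.1% lower. At least 1 apart was 1 of 9, Mest, against 1.18% of all genes. Higher calls made up 67.5% of all calls as reported, but 51.1% with quantile normalization and 46.5% with median scaling. In knockout against heterozygous cells 9 of 9 were called, 5 higher and 4 lower, against 51.8% of all genes, 26.4% higher and 25.4% lower, and 1 of 9, H19, was at least 1 apart against 0.725% of all genes. The 9 calls became 6 after quantile normalization and 7 without the intensity trend. Plagl1 and Igf2 passed the filter through the groups in which they are high, so the counts in both comparisons are no result about these genes. The 3 comparisons share libraries, so their values are given side by side and are not independent of one another. Of the 9 tested genes, libraries did not overlap in 8 between knockout and wild type, in 8 between heterozygous and wild type and in 9 between knockout and heterozygous, against 83.8%, 76% and 77.8% of all genes tested.

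**Figure D2:**
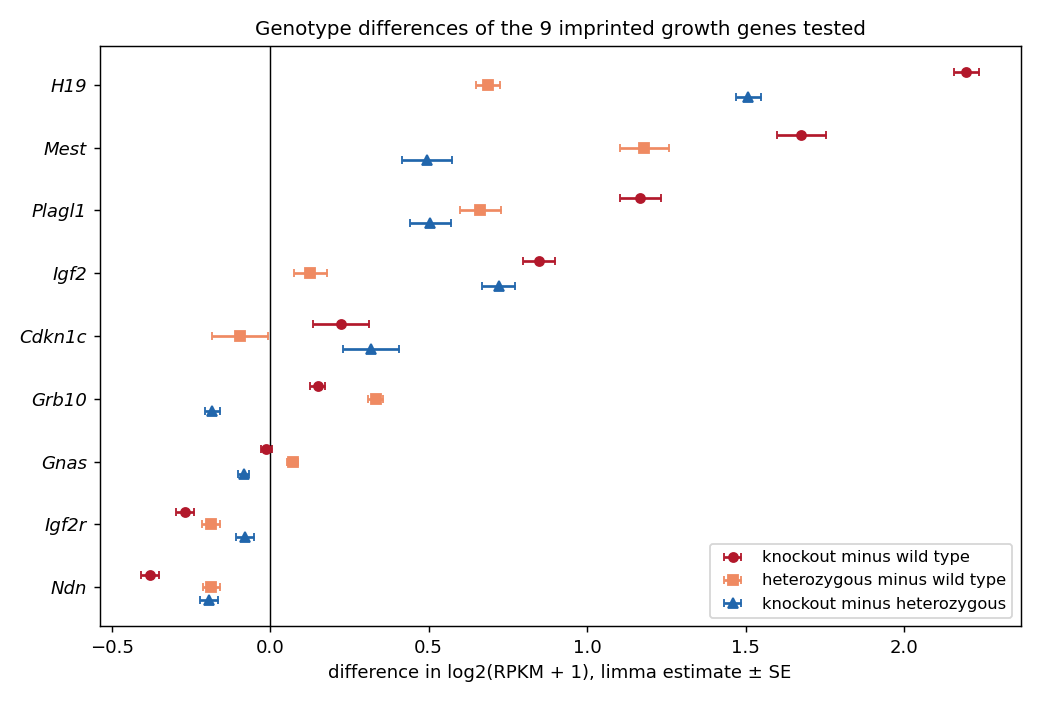
Differences in log2(RPKM + 1) between genotypes for the 9 imprinted growth genes tested, as limma estimates ± SE, ordered by knockout minus wild type. H19, Mest, Plagl1 and Igf2 lie to the right of 0 in knockout minus wild type (0.85 to 2.20), Igf2r and Ndn to the left (-0.27 and -0.38). The sign of Gnas in knockout minus wild type turned after quantile normalization.

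**Figure D3:**
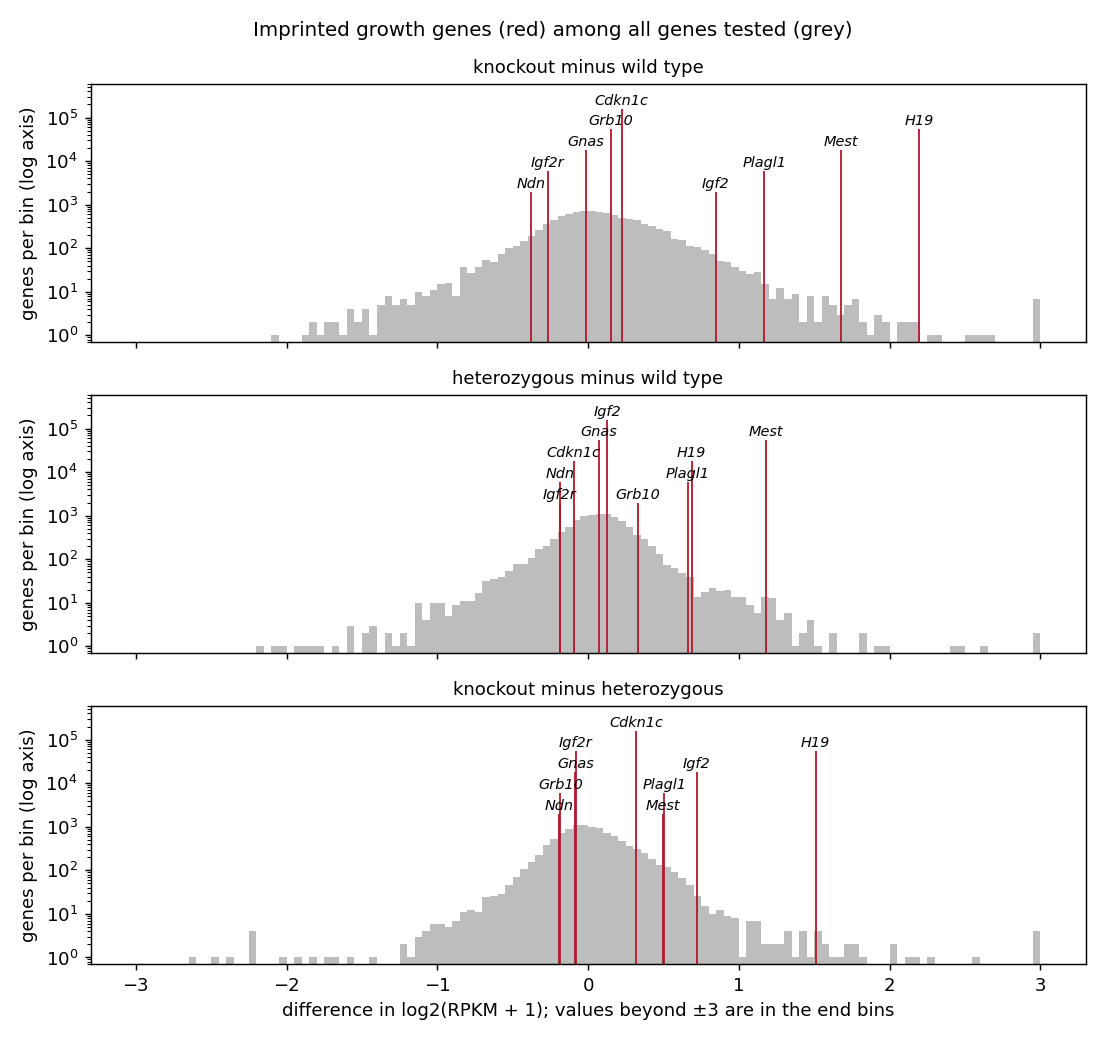
Distribution of log2(RPKM + 1) differences of all 10897 genes tested (grey, genes per bin on a log axis) with the imprinted growth genes marked in red, for each pair of genotypes. In knockout minus wild type H19 ranked 14, Mest 40 and Plagl1 112 from the top, whereas Gnas, Cdkn1c and Grb10 lie within the bulk, where the sign of Gnas turned after quantile normalization.

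Other genes of the same pathways, listed by function, are read against the background shares given above for knockout against wild type. Of 12 genes of Igf signalling 11 were tested, 5 rose and 4 fell. Igf1r, the receptor through which Igf2 signals, stood at 12.9 and 13.3 RPKM in knockout, 14.9 and 15.7 RPKM in heterozygous and 13.2 and 12.8 RPKM in wild type, with a knockout difference of 0.01 ± 0.04 (limma adjusted p = 0.834). Of the Igf binding proteins, Igfbp2 rose to 9.42 ± 0.222 RPKM in knockout, against 1.75 ± 0.239 RPKM in wild type, and Igfbp4 to 412 ± 3.91 RPKM against 171 ± 2.57 RPKM, while Igfbp7 fell to 70.2 ± 0.395 RPKM in knockout against 120 ± 3.91 RPKM in wild type (SD, n = 2 each). Igfbp3 was 36.8 ± 0.0136 RPKM in knockout, 34.7 ± 0.02 RPKM in heterozygous and 4.87 ± 0.084 RPKM in wild type.

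Of 8 genes that bind Igf2 mRNA or belong to the fetal growth programme, 6 were tested, 3 rose and 3 did not pass. Hmga2, a chromatin protein of growing mesenchyme, stood at 82.1 ± 0.713 RPKM in knockout, 76.3 ± 0.262 RPKM in heterozygous and 50.6 ± 0.516 RPKM in wild type, Hmga1 rose by 0.43 ± 0.01 on the log2 scale, and Igf2bp2, which binds Igf2 mRNA, rose by 0.38 ± 0.05 (limma adjusted p = 0.000451). Lin28a and Lin28b were at 0 in every library. Of 8 genes of the Plag family and its partners, 5 were tested, 3 rose and 1 fell. Plagl2, a paralog of Plagl1, rose by 0.47 ± 0.06 (adjusted p = 0.000374) and Tcf4, a basic helix-loop-helix transcription factor, by 0.76 ± 0.04, while Cdkn1a, the cell cycle inhibitor p21, fell by 0.33 ± 0.01 and Cdkn1b, the inhibitor p27, rose by 0.30 ± 0.05.

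Of 13 other genes of the imprinted network, 8 were tested, 5 rose and 1 fell, each against wild type in knockout. Dlk1, a membrane protein related to Notch ligands, stood at 18.8 ± 0.0687 RPKM in knockout, 3.55 ± 0.0351 RPKM in heterozygous and 1.55 ± 0.136 RPKM in wild type (SD, n = 2 each), and Dcn, which encodes the proteoglycan decorin, at 28.2 ± 1.93, 20.6 ± 0.322 and 12.5 ± 1.09 RPKM. Meg3, the maternal noncoding RNA beside Dlk1, stood at 7.4 ± 0.131, 3.65 ± 0.0338 and 3.66 ± 0.0621 RPKM, so the heterozygous and wild-type means nearly coincided. Slc38a4, an amino acid transporter, was 1.26 ± 0.134 RPKM in knockout and 0.144 ± 0.0369 RPKM in wild type, and passed the filter through the knockout libraries. Gatm, the gene that fell, passed the filter through the wild-type libraries alone. Nnat, not called here, passed through the heterozygous libraries alone. The counts of this list are therefore no result about it.

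In the domain of H19, Igf2 and Cdkn1c, 4 of 12 listed genes were tested (Mrpl23, Cd81, Tssc4 and Nap1l4), and 0 were called by limma, with 0 at an unadjusted p under 0.05. Cd81, a membrane protein gene, had 303 and 305 RPKM in knockout, 303 and 305 RPKM in heterozygous and 305 and 301 RPKM in wild type. Of 23 neighbours of the other members, 22 were in the table, 9 were tested, 1 rose and 5 fell. Snurf, which shares an imprinted transcript with Snrpn in the domain of Ndn, fell by 0.28 ± 0.06 (adjusted p = 0.00549), and Snrpn stood at 4.72 and 4.34 RPKM in knockout, 5.15 and 4.53 RPKM in heterozygous and 5.55 and 5.77 RPKM in wild type. These 2 rows overlap and may count the same reads. Npepl1, beside Gnas, fell by 0.23 ± 0.03, Cobl, beside Grb10, fell by 0.31 ± 0.06, and Ltv1, near Plagl1, rose by 0.27 ± 0.05. Cobl passed the filter through the wild-type libraries alone, so its fall is no support. As it is 1 of the 5 that fell, that count is no result about these neighbours. Copg2, the neighbour of Mest, stood at 8.23 and 7.87 RPKM in knockout, 8.72 and 9.50 RPKM in heterozygous and 9.79 and 9.35 RPKM in wild type, a fall of 0.22 ± 0.05 in knockout (adjusted p = 0.00568), with heterozygous and wild type overlapping.

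Of 15 genes that maintain imprints or write repressive chromatin, 11 were tested, 8 rose and 3 did not pass. Smchd1, a chromatin protein needed at some imprinted clusters and on the inactive X, stood at 3.75 ± 0.0393 RPKM in knockout, 2.30 ± 0.0018 RPKM in heterozygous and 1.74 ± 0.127 RPKM in wild type (SD, n = 2 each). Suz12 and Eed, subunits of Polycomb repressive complex 2, rose by 0.62 ± 0.05 and 0.43 ± 0.05, and Uhrf1, which brings the maintenance methyltransferase Dnmt1 to replicating DNA, rose by 0.60 ± 0.05 (limma adjusted p = 3.67e-05). The proliferation markers given above moved in the same order of genotypes.

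In heterozygous against wild-type cells, where 52.6% of all genes tested were called, 35.5% higher and 17.1% lower, the same lists gave 7 higher and 4 lower of 11 Igf signalling genes, 2 higher and 1 lower of 6 in the fetal growth list, 4 higher and 1 lower of 5 in the Plag list, and 5 higher with 3 not called of 8 other network genes. Of the 11 imprint and chromatin genes tested, 6 were higher and 1 was lower. Among neighbours, 1 of 4 was lower in the H19 domain, namely Mrpl23, and 1 was higher and 4 were lower of 9 around the other members. In knockout against heterozygous cells 51.8% of all genes tested were called, 26.4% higher and 25.4% lower. There 3 of 11 Igf signalling genes were higher and 4 lower, 3 of 6 in the fetal growth list were higher, and 1 of 5 in the Plag list was lower. Of 8 other network genes 4 were higher and 2 lower, and of 11 imprint and chromatin genes 6 were higher and 1 was lower. Of the neighbours, 1 of 4 was higher in the H19 domain, again Mrpl23, and 2 of 9 were higher and 2 lower around the other members. Slc38a4, Gatm, Nnat and Cobl each passed the filter through the 1 genotype in which they are high. The counts that include them are no result about the lists.

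The genes with the pattern nearest to H19 and to Plagl1 were found by the Euclidean distance between log2(RPKM + 1) values, each centred on the gene's own mean over the 6 libraries. Nearest to H19 were Cd68, a lysosomal protein of macrophages (distance 0.37), Spon2 (0.39), Angptl7 (0.44), Pcp4l1 (0.45) and Gas2 (0.50). Cd68 stood at 7.47 and 7.61 RPKM in knockout, 1.61 and 1.42 RPKM in heterozygous and 0.818 and 1.04 RPKM in wild type. It is also 1 of the macrophage markers, of which 6 of 7 tested rose in knockout against wild type, where 40.6% of all genes tested did. Of the 7, Tyrobp, Fcer1g and Csf1r passed the filter through the knockout libraries alone, so this count is no support. In heterozygous against wild type 2 of the 7, Cd68 and Csf1r, were higher and 1, Lyz2, was lower, and the part of macrophage RNA in the H19 values was not tested. Nearest to Plagl1 were Fkbp3 (0.11), Arrdc3 (0.12), Ahr, the aryl hydrocarbon receptor (0.13), Trps1, a transcription factor of skeletal growth (0.13), and Slk, a kinase (0.13). Arrdc3 stood at 2.93 and 2.95 RPKM in knockout, 1.78 and 1.81 RPKM in heterozygous and 0.789 and 0.758 RPKM in wild type. These distances over 6 libraries, which fall into 3 genotypes, are a description. Among the 9 tested members the closest pair was Igf2r and Ndn, at a distance of 0.13, and the gene nearest to Plagl1 within the group was Igf2, at 0.56.

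**Figure D4:**
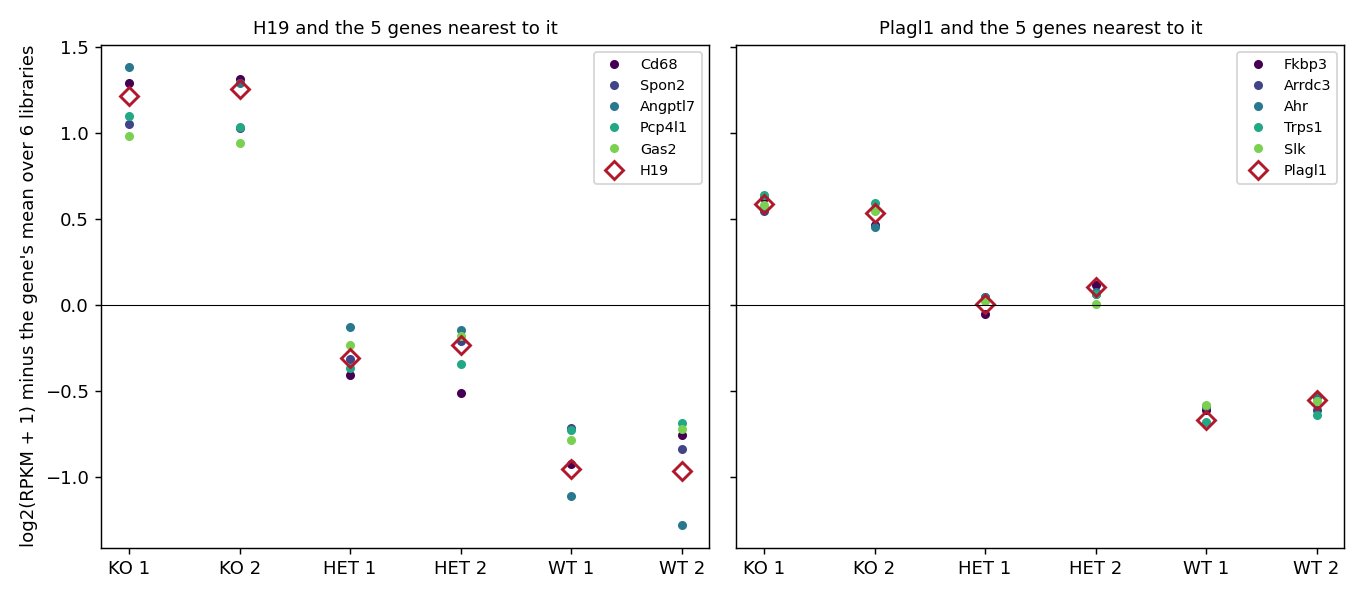
log2(RPKM + 1) minus each gene's mean over the 6 libraries, for H19 and Plagl1 (open diamonds) and the 5 genes nearest to each (filled points), in knockout (KO), heterozygous (HET) and wild-type (WT) libraries. For both, knockout libraries lie above the mean of the gene and wild-type libraries below it, with heterozygous libraries between them.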

How the data were processed

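Polyadenylated RNA of 6 libraries was sequenced. The submitters' processing notes name TopHat and the build mm9, and no source used here names the counting tool. The authors deposited 1 RPKM value per gene symbol and library, from coverage tracks per the file headers, which do not name the unit. It was identified from the values: times gene length they were whole multiples of 1 step per library, most often 37 steps in short genes (taken as the read length), and lengths (tolerance 0.002 bases) were found for 18886 of 18888 genes above 0. Total aligned bases were whole, and gave the depths. Counting SDs and floors cover counting error only, while the ± values are SDs or limma SEs from the scatter between libraries. The variance between replicates was 1.16 to 1.23 times that of counting by a robust estimate and 1.58 to 2.36 times as a mean over genes, with 59 to 80 genes a genotype over 4 counting SDs apart.

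Genes reaching 1 RPKM in 2 or more libraries entered the tests, on log2(RPKM + 1). limma 3.58.1 in R 4.3.3 fitted 3 genotype means (trend, 3 residual degrees of freedom, two-sided). The script was tested on simulated data. All 10 members, the 4 called genes with the smallest p of each list and the 5 genes nearest to H19 and Plagl1 are named, besides Mir675, Mir335, Airn, Peg3as, Igf1r, Lin28a, Lin28b, Cd81, Mrpl23, Tssc4, Nap1l4, Snrpn and Copg2, chosen after their values were seen. Lum, Thy1, Sox9, Acta1, Myod1, Myf5, Csf1r, Lyz2, Tyrobp and Fcer1g of the marker lists, and Gatm and Nnat, were also named after their values were seen. Members and lists were chosen with earlier results of these data known. Alternatives were other pseudocounts, filters and scalings, no trend, a replicate block, each library left out and 2 genotypes alone (added after seeing the data).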

Additional observations from a re-analysis of the deposited data

How the results depend on the processing

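H19, Mest and Ndn kept their direction and their calls in every alternative fit they entered, in all 3 comparisons. Plagl1 did too, but it passed the filter through the groups in which it is high, so its kept calls say nothing of stability. Over all members and comparisons, 362 of 395 alternative values kept direction and side of the threshold. Of the others, 4 values changed sign, and among those that kept their sign 21 calls were lost and 8 were gained. Of the 4, Gnas also gained a call after quantile normalization in knockout against wild type. It lost its call after median scaling in heterozygous against wild type. The sign changes were Gnas in knockout against wild type after quantile normalization (0.11), Igf2 in heterozygous against wild type after quantile normalization (-0.0132), Gnas in heterozygous against wild type after median scaling (-0.0144) and Cdkn1c in heterozygous against wild type without the first wild-type library (0.0171, in a range from -0.206 to 0.0171 over fits that each left out 1 library), and the cause was not tested. With a filter at 5 RPKM 4754 genes were called in knockout against wild type, where 6788 in place of 10897 were tested, and Igf2, Plagl1 and Cdkn1c left the test. Nothing in the labels ties libraries of the same number, and their deviations correlated between genotypes at -0.0882, -0.062 and 0.0648, so the numbers do not pair the libraries. With a replicate block, 7253 genes and 8 of 9 members were called in knockout against wild type, 5564 and 7 in heterozygous against wild type, and 5448 and 8 in knockout against heterozygous. Low read numbers limit Plagl1, Peg3, Igf2 and Cdkn1c in wild-type cells, and 2 libraries a genotype limit every test.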
